A study of Mus musculus with 87 samples.

Results

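The step from 28 to 36 h after partial hepatectomy (PH, removal of most of the liver) was examined in 9 of the 80 livers with values in the study, 3 taken at 28 h (X28) and 6 at 36 h (X36). Members were the libraries whose labels gave these hours. All mice were C57BL/6 males of 12–14 weeks that carried no engineered allele in the labels. They had been kept on alternating light and dark with food in the dark only, and were operated under isoflurane at Zeitgeber Time (ZT) 2, ZT0 being the start of the light and fasting phase. X28 livers were therefore taken at ZT6, in the light and fasting phase, and X36 livers at ZT14, 2 h into the dark and feeding phase. Hours post-PH, time of day and feeding changed together between X28 and X36, and their parts in any difference cannot be told apart from this comparison. Each library held poly(A) RNA of 1 whole liver, so more cells of a type and more RNA per cell cannot be told apart either. The X36 livers were collected in 2 separate periods, 3 livers in each, and the X28 livers in only 1 of them. Unoperated livers (C0, ZT2, 9 livers) and livers at 4 h (X4, ZT6, 3 livers), 10 h (X10, ZT12, 6 livers) and 44 h post-PH (X44, ZT22, 3 livers) were set beside them.

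Adult hepatocytes rest outside the cell cycle and re-enter it after PH. Before DNA can be copied, the origin recognition complex, Cdc6 and Cdt1 load the Mcm helicase onto origins (licensing). Cdc7 kinase and cyclin-dependent kinases then recruit Cdc45 and the GINS complex to fire them, and DNA polymerases with the sliding clamp Pcna copy the strands. Many of these genes are targets of E2F factors, which the retinoblastoma family of pocket proteins holds in check in resting cells. Genes of mitosis form a later wave, many of them bound through CHR elements, and clock genes of the liver follow E-boxes and D-boxes.

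Stretches upstream of the start sites of several genes that the results turn on are shown first, because the letters searched differ in frequency between the gene lists described below. They come from RefSeq promoter windows of the GRCm38.p6 build (250 bases before to 50 after the start, the first window of each gene) and are written 5′ to 3′ on the gene's strand. Capitals mark matches to the motif named. For E2F, the letters searched on both strands were TTTCCCGC, TTTGGCGC, TTTCGCGC and TTTGCCGC, which can overlap each other. Genes of licensing and of the replication fork held these E2F letters:
Mcm5, chr8:75109340-75109387 (+): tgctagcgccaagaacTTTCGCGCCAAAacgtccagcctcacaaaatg
Mcm6, chr1:128359725-128359772 (-): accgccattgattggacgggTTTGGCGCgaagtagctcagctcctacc
Cdc6, chr11:98907993-98908040 (+): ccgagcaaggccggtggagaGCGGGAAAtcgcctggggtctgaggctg
Pola1, chrX:93632266-93632313 (-): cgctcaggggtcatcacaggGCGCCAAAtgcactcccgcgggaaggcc
Genes of mitosis held the CHR letters TTTGAA on either strand:
Cdk1, chr10:69352913-69352947 (-): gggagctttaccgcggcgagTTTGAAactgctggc
Cdc20, chr4:118437344-118437381 (-): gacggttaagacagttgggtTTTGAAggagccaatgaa
Mki67, chr7:135716452-135716497 (-): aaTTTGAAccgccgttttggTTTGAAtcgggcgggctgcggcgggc
Clock genes held the E-box CACGTG or the D-box TTATGTAA:
Gm129 (Ciart), chr3:95882247-95882292 (-): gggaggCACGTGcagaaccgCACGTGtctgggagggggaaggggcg
Per1, chr11:69098763-69098808 (+): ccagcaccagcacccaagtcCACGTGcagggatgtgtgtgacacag
Per3, chr4:151044796-151044843 (-): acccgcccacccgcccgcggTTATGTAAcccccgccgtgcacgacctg

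Of 27025 RefSeq promoters, 2.32% held an E2F match, 18.1% a CHR match, 7.24% an E-box and 0.955% a D-box. Among the 55 promoters matched to genes of licensing, firing, the fork and deoxynucleotide supply, 16 (29.1%) held an E2F match. By list, it was held by 8 of 13 for licensing (61.5%), 2 of 8 for firing (25%) and 6 of 24 for the fork (25%). For deoxynucleotide supply, 0 of 10 held one. Among the 40 promoters of mitosis genes, 28 (70%) held the CHR letters and 3 (7.5%) an E2F match. Of 16 clock promoters, 5 held an E-box (31.2%), 1 held a D-box and none held a match for E2F. Among the 55 promoters above, 7 (12.7%) held an E-box, with the highest share for deoxynucleotide supply (3 of 10). CHR letters were in 7 of the 55 (12.7%), with the highest share for firing (4 of 8). A match describes the letters in the window and was not tested for binding.

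The 8 libraries other than X28 replicate 2 had an estimated 21.3 to 29.9 M reads each, and livers of a group correlated across genes at 0.972 to 0.99 (Pearson's r, log2 values). X28 replicate 2 stood apart at the low end: it held 2481 genes with values above zero reads but below −6 log2 RPKM (reads normalised to transcript length and to the reads of the library), against 645 to 951 in the other 8 libraries. Only 36.9% of its low values lay within 0.05 of a whole read, against 74 to 78% in the others, so no depth is given for it. Counts were therefore also made without it. Medians over the genes tested were 1.93 to 2.15 RPKM in X28 and 2.43 to 2.91 RPKM in X36, so the direction of small changes depended on the scaling of libraries.

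Far more genes rose than fell between X28 and X36 as deposited. Of 15396 genes tested with limma on log2(RPKM + 0.25), 2793 (18.1%) passed an adjusted p of 0.05 and a log2 fold change beyond 0.5, and are called changed here; a gene that missed either limit is said not to have passed. Of them, 2326 (15.1% of the genes tested) were higher and 467 (3.03%) lower in X36. With all libraries scaled to the same median, 1034 genes (6.72%) were higher and 1437 (9.33%) lower, and the share of calls that were higher moved from 83.3% to 41.8%. All 1034 genes called higher after scaling were among the 2326, and all 467 called lower as deposited were still called lower. The median log2 fold change of all genes tested was 0.14 as deposited and −0.09 after scaling. Genes with a mean between 0 and 2 log2 RPKM had a median change of 0.25 as deposited and −0.04 after scaling, whereas the 214 genes above 8 log2 RPKM had −0.05 and −0.37. Without X28 replicate 2, 2276 genes (14.8%) were higher and 337 (2.19%) lower. All fold changes below are on the log2(RPKM + 0.25) scale, which understates changes of genes with low RPKM, and each p is limma's after Benjamini-Hochberg adjustment over all genes tested.

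**Figure D1:**
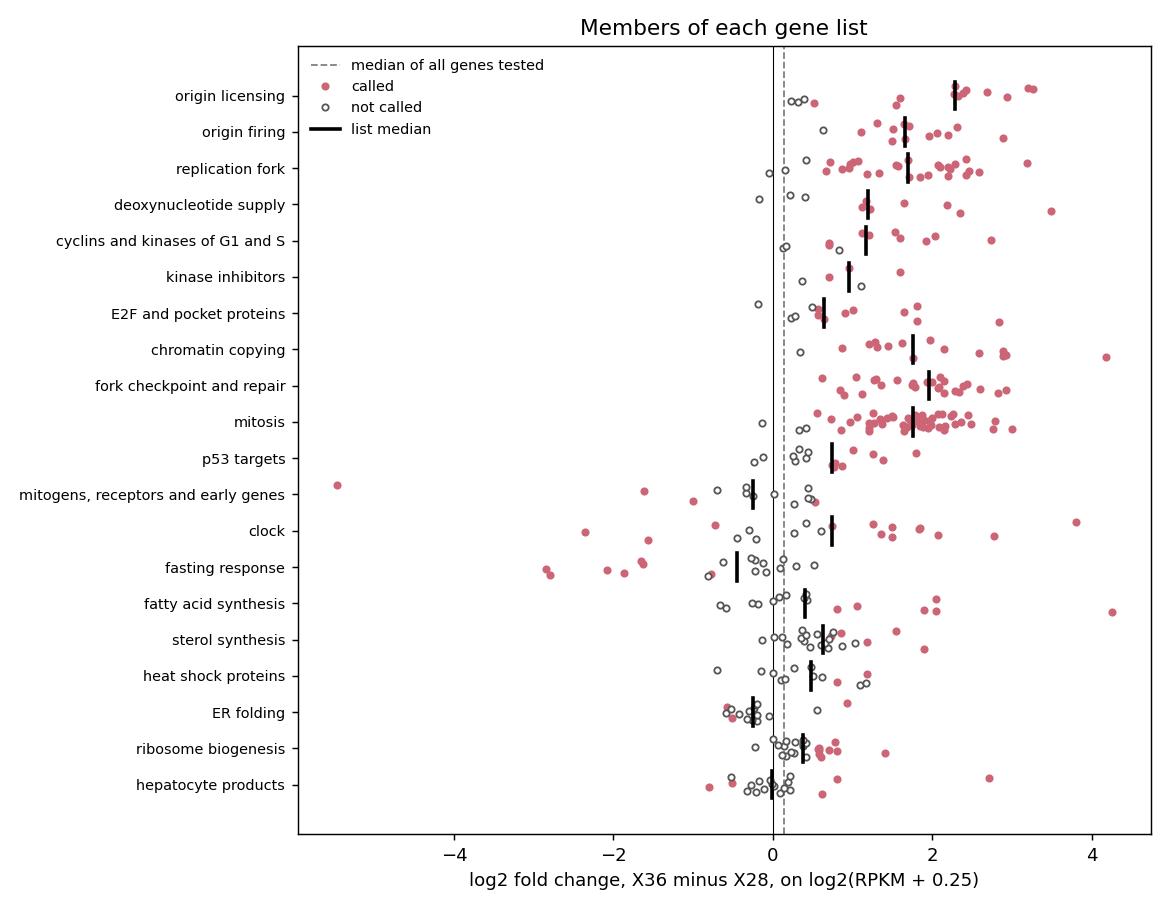
Log2 fold change from X28 to X36 of each tested member of 20 gene lists (filled points passed the test, open points did not). Black bars are list medians and the dashed line is the median of all 15396 genes, 0.14; the medians of the lists of licensing, firing, fork, chromatin copying, checkpoint and mitosis lie between 1.66 and 2.28.

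Genes that license origins had the highest median rise of the replication lists. Of 15 licensing genes, 12 were higher and none lower in X36 (11 higher after scaling, 12 without X28 replicate 2), with a median log2 fold change of 2.28. Mcm5, a subunit of the replicative helicase, stood at 4.16, 3.53 and 0.904 RPKM in the 3 X28 livers and between 10.3 and 37.3 RPKM in X36, with a median of 29.6. Every X36 liver lay above every X28 liver. Its log2 fold change was 3.26 ± 0.37 (SE; adjusted p = 1.0e-10), or 9.59-fold. Mcm6, another subunit, had 4.84, 4.68 and 1.21 RPKM in X28 and 16.1 to 42.5 RPKM in X36 (median 31.7), again without overlap, and rose by 3.20 ± 0.35. The other helicase subunits Mcm2, Mcm3, Mcm4 and Mcm7 rose by 2.28 to 2.69 on the log2 scale.

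Among the loading factors, Cdc6 was near silent in X28, with 0.48, 0.411 and 0.0955 RPKM, and reached 1.34 to 5.76 RPKM in X36 (median 4.83). Groups did not overlap, and the log2 fold change was 2.93 ± 0.22 (adjusted p = 6.46e-18). Cdt1, which acts with Cdc6, went from 3.43, 4.10 and 1.27 RPKM to 7.59–20.3 RPKM (median 15.1), a log2 fold change of 2.32. Geminin (Gmnn), the inhibitor of Cdt1, rose alongside from 2.20, 2.96 and 2.07 RPKM to 9.26–15.7 RPKM (median 12.5), a log2 fold change of 2.27. Within the origin recognition complex, Orc1 (1.54), Orc6 (1.60) and Orc2 (0.51) rose. Orc3, Orc4 and Orc5, with log2 fold changes of 0.31, 0.23 and 0.39, did not pass the test.

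Genes of origin firing moved the same way, with 12 of 13 higher and none lower, as they were after scaling and without X28 replicate 2 (median log2 fold change 1.66). Cdc45, the helicase cofactor, had 1.01, 0.878 and 0.628 RPKM in X28 and 3.88 to 11.1 RPKM in X36 (median 8.53), with no overlap and a log2 fold change of 2.89 ± 0.22. Topbp1, a scaffold for firing and for checkpoint signalling, rose by 2.31, and Gins2 of the GINS complex by 2.20. Only Mcm10 of this list did not pass, at 0.63.

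**Figure D2:**
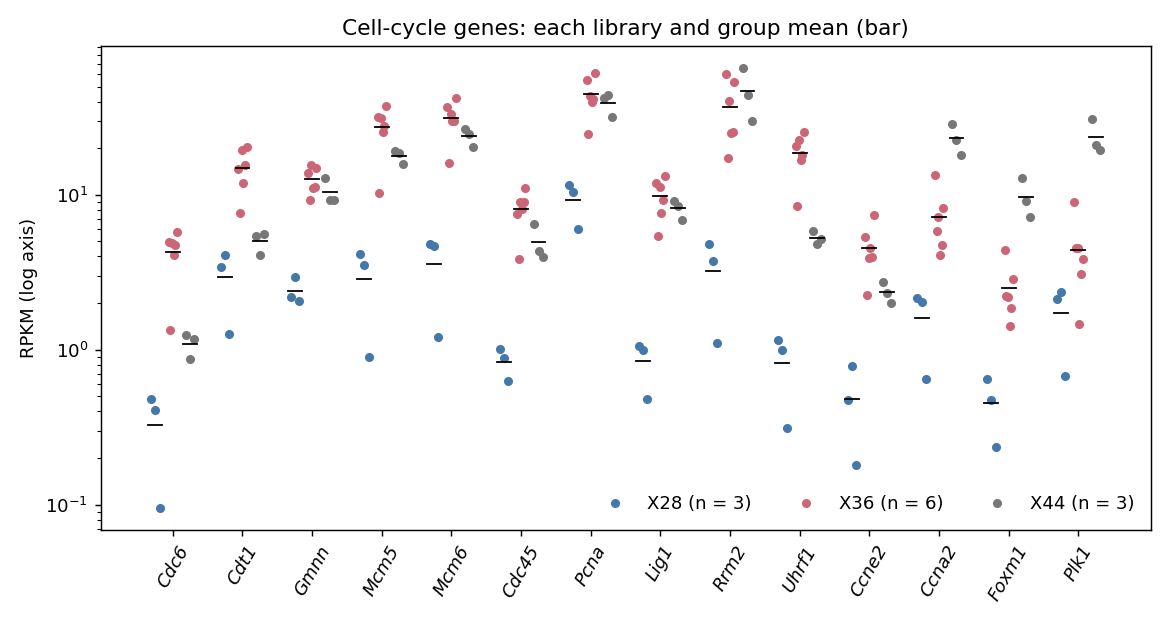
RPKM (log axis) of 14 cell-cycle genes in each X28, X36 and X44 liver, with group means as bars. For Cdc6, Mcm5, Mcm6 and Uhrf1, X36 values lie above all X28 values, and X36 replicate 2 is the lowest X36 point; for Ccna2, Foxm1 and Plk1 the X44 livers are highest.

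At the replication fork, 26 of 29 genes were higher and none lower (24 after scaling), with a median log2 fold change of 1.70. DNA ligase I (Lig1), which joins Okazaki fragments, had 1.06, 0.994 and 0.479 RPKM in X28 and 5.43 to 13.3 RPKM in X36 (median 10.2), and rose by 3.19 ± 0.24 with no overlap. Pcna rose from 11.5, 10.4 and 6.05 RPKM to 24.7–61.5 RPKM (median 42.7), 4.65-fold. Subunits of all 3 replicative polymerases rose, among them Pole (2.59) and Pole2 (2.46) of polymerase epsilon, Pold1 (2.42) of polymerase delta and Pola1 (1.85) of polymerase alpha. Small subunits Pold4 (−0.05) and Pole4 (0.15) did not pass the test, nor did Rnaseh2c (0.41).

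Supply of deoxynucleotides followed, with 7 of 10 tested genes higher and none lower, the same count after scaling. Rrm2, the regulated subunit of ribonucleotide reductase, went from 4.82, 3.73 and 1.11 RPKM to 17.3–60.5 RPKM (median 32.9). No X36 liver overlapped X28, and the log2 fold change was 3.49 ± 0.39 (adjusted p = 4.33e-11). Its partner Rrm1 rose by 2.35, thymidine kinase (Tk1) by 2.18 and thymidylate synthase (Tyms) by 1.22. The folate enzymes Shmt1 (0.40) and Mthfd1 (0.21) and the kinase Nme1 (−0.17) did not pass, and Dctd was below the limit of detection.

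Factors that copy chromatin and DNA methylation along with DNA were higher for 14 of 15 genes and lower for none, as after scaling (median log2 fold change 1.76). Uhrf1, which guides the maintenance methyltransferase to hemimethylated DNA, had the largest rise of all cell-cycle genes listed. It stood at 1.15, 1.00 and 0.313 RPKM in X28 and at 8.50 to 25.5 RPKM in X36 (median 19.4), and its log2 fold change was 4.18 ± 0.28 (adjusted p = 2.59e-19). Dnmt1, the methyltransferase itself, rose less, by 1.76, from 2.72, 2.48 and 1.70 RPKM to 5.22–10.7 RPKM. Chaf1a, a subunit of the histone chaperone CAF-1, rose by 2.92, and the chromatin remodeller Hells by 2.88.

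Over the 4 lists of licensing, firing, fork and deoxynucleotides, 57 of 67 tested members were higher, none was lower (also at an unadjusted p of 0.05 by limma) and 54 were higher after scaling. Each of the 57 had all X36 livers above all X28 livers, but these genes were called on the same livers. Among tested members, called or not, this ordering held for 12 of 15 licensing and 12 of 13 firing genes. It held for 26 of 29 fork and 8 of 10 deoxynucleotide genes. Of all genes tested, 20.7% had this ordering and 3.66% its opposite.

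Among the cyclins, those of late G1 and S rose whereas the D cyclins did not pass with all X36 livers. Of 12 cyclins, kinases and their activators, 9 were higher and none lower (7 after scaling). Cyclin E2 (Ccne2) had 0.476, 0.783 and 0.179 RPKM in X28 and 2.24 to 7.42 RPKM in X36 (median 4.24), with no overlap and a log2 fold change of 2.74 ± 0.23. Ccne1 rose by 1.92, Cdk2 by 1.60 and cyclin A2 (Ccna2) by 2.03. Cyclin D1 (Ccnd1), which links mitogen signals to the cycle, was already abundant, with 54.2, 62.6 and 26.4 RPKM in X28 against 3.64 ± 1.83 RPKM in C0 (SD, n = 9). In X36 it stood at 50.4 to 117 RPKM (median 83.2), so the groups overlapped, and the log2 fold change of 0.83 ± 0.37 did not pass (adjusted p = 0.0794). Ccnd1 was called higher with X36 livers 1 to 3 alone but not with livers 4 to 6 alone.

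Of the 5 tested inhibitors of these kinases 3 were higher (2 after scaling) and none lower, against 15.1% of all genes tested higher (6.72% after scaling). The INK4 inhibitor Cdkn2c rose from 2.19, 2.13 and 1.36 RPKM to 4.21–9.57 RPKM (median 6.60), a log2 fold change of 1.60, and Cdkn2d by 0.96, a call lost with X36 livers 4 to 6 alone (0.54, adjusted p = 0.0513). With those livers alone, 1 of the 5 inhibitors was higher, which is near the share over all genes tested (13.6%). Cdkn1c rose by 0.70, but that call was lost after scaling and without any single library of X28 or of X36 replicates 1 to 3. Cdkn1a (p21) was spread in both groups, with 3.42, 5.51 and 9.12 RPKM in X28 and 6.46 to 22.5 RPKM in X36, and did not pass (log2 fold change 1.10 ± 0.66, adjusted p = 0.22). Cdkn1b (p27) changed by 0.37, below the limit on size.

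E2f1, the gene of an activating E2F, had the highest log2 fold change of its list. It stood at 1.18, 0.94 and 0.528 RPKM in X28 and at 4.30 to 12.3 RPKM in X36 (median 7.49), a log2 fold change of 2.84 ± 0.22 (adjusted p = 8.09e-17). Of the 13 E2F and pocket protein genes, 9 were higher and none lower (6 after scaling). E2f2 (1.81), the repressor E2f8 (1.64) and the pocket protein gene Rbl1 (1.81) were among those that rose. Rb1 (0.49), Rbl2 (−0.19), E2f4 (0.23) and E2f5 (0.28) did not pass.

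All 26 genes of fork checkpoint and repair were higher in X36 (25 after scaling), with a median log2 fold change of 1.96. Chek1, the checkpoint kinase of stalled forks, had 0.449, 0.49 and 0.0717 RPKM in X28 and 1.63 to 4.91 RPKM in X36 (median 4.06), and rose by 2.82 ± 0.22 with no overlap. Rad51ap1 rose by 2.60, and the upstream kinases Atr and Atm by 0.89 and 1.12. Of 15 targets of p53, 8 were higher and none lower, but 4 of the 8 after scaling. Tnfrsf10b, a death receptor (1.79), Phlda3 (1.38, not called with X36 livers 4 to 6 alone) and Eda2r (1.26) rose most, whereas Gdf15 (−0.24) and Bbc3 (−0.12) did not pass.

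Mitotic genes rose too, and most rose again by 44 h. Of 50 genes, 47 were higher and none lower in X36 (46 after scaling, 41 without X28 replicate 3). Mki67, the proliferation marker, had 1.69, 1.5 and 0.574 RPKM in X28, 3.17 to 11.6 RPKM in X36 (median 4.99) and 24.7 ± 8.94 RPKM in X44 (SD, n = 3). X28 and X36 did not overlap, and the log2 fold changes were 2.07 ± 0.28 from X28 to X36 and 2.02 from X36 to X44. Polo-like kinase Plk1 overlapped between X28 (2.12, 2.36 and 0.680 RPKM) and X36 (1.47 to 9.03 RPKM, median 4.18), with a log2 fold change of 1.21, and rose by 2.51 to X44. Without X28 replicate 3, Plk1 changed by 0.73 and was not called.

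A few members of the mitosis list behaved otherwise. Pkmyt1 and Wee1, the kinases that hold Cdk1 inactive, rose by 3.00 and 2.76 to X36, and from X36 to X44 Wee1 fell by 0.98. Wee1 is also a clock-controlled gene. Pttg1 (−0.14), Cdc25b (0.33) and Mybl2 (0.42) did not pass from X28 to X36.

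X44 shares its comparison group X36 with the step described here, so both steps are given side by side. From X36 to X44, 1466 genes (9.52%) were called, 997 higher (6.48%) and 469 lower (3.05%). Mitosis genes were higher for 44 of 50 (median log2 fold change 1.71), while licensing genes were higher for none (none at an unadjusted p of 0.05) and lower for 6 of 15 (median −0.34). Cdc6 fell from a median of 4.83 RPKM in X36 to 1.24, 0.87 and 1.17 RPKM in X44, a log2 fold change of −1.66. Uhrf1 fell by 1.71, Cdt1 by 1.46 and Ccnd1 by 1.5 on the log2 scale. Rrm2 (0.40) and Pcna (−0.13) did not pass between X36 and X44.

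**Figure D3:**
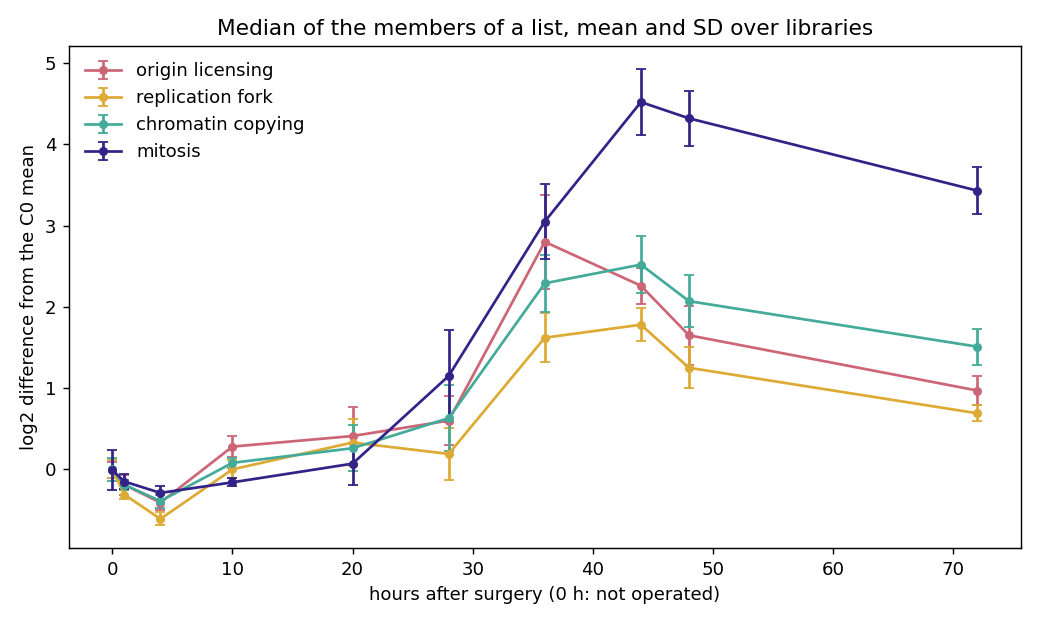
Median over the members of 4 gene lists, as log2 difference from the C0 mean, against hours after surgery; points are means over livers and error bars SD (n = 3 to 9). Licensing genes lie at 0.60 in X28, 2.80 in X36 and 2.26 in X44, and mitosis genes at 1.15, 3.05 and 4.52.

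Livers of the same hour differed in how far these genes had risen. X28 replicate 3 was the lowest of the 3 X28 livers for all 57 replication genes that rose and for all 47 mitosis genes that rose. These genes were called on the same livers, and a low X28 liver raises the fold change. Over all 15 licensing genes, called or not, the median in X28 replicate 3 lay at −0.67 from the X28 mean (log2). The other X28 livers had 0.34 and 0.29. Without X28 replicate 3, Mcm5 changed by 2.65 instead of 3.26 and 11 of 15 licensing genes were higher. X36 replicate 2 was the lowest X36 liver for 48 of the 57 replication genes, with Mcm5 at 10.3 RPKM where the other 5 X36 livers had at least 25.4 RPKM. For mitosis genes, X36 replicate 1 was highest for 42 of 47 and X36 replicate 4 lowest for 32.

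X36 livers 1 to 3 and 4 to 6 also differed as sets. The methods place 3 X36 livers in each of 2 collection periods and X28 and X44 in the first only, but which replicate numbers belong to which period is not given in the sources used here, so X28 was set against each set in turn. Between the sets, 1036 genes (6.73%) were called, 126 (0.818%) higher and 910 (5.91%) lower in livers 4 to 6. None of the licensing, firing, fork and deoxynucleotide genes was called by limma (7 of 67 had an unadjusted p under 0.05), against 10 of 50 mitosis genes and 7 of 15 p53 targets, all lower in livers 4 to 6. With X36 livers 1 to 3 alone, 13 licensing and 49 mitosis genes were higher than in X28 (18.2% of all genes tested), and with livers 4 to 6 alone, 12 and 42 (13.6%). In either direction, 3252 genes were called with livers 1 to 3 and 2732 with livers 4 to 6. Of the genes named in the text, Per1, Met, Hspa8, Pdia6, Arg1 and G0s2 were not called with livers 1 to 3, and Plk1, Cdkn2d, Cdkn1c, Phlda3, Egfr, Lss, Hspa8 and Fgf21 were not called with livers 4 to 6.

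Markers of some other liver cells differed along the same division. All 10 endothelial markers were lower in X36 livers 4 to 6 than in 1 to 3, as were 5 of 10 macrophage and 5 of 10 stellate cell markers. Of 7 cholangiocyte markers 2 were lower, and no lymphocyte, neutrophil or erythroid marker was called between these sets. Summed endothelial markers ranged from 23.8 to 29.4 RPKM in X28 and from 7.51 to 33.4 RPKM in X36, and summed macrophage markers from 35.7 to 94.0 RPKM and from 12.2 to 102 RPKM. Their part in the difference within X36 was not tested. Between X28 and X36, 1 of 10 endothelial markers was lower (5 after scaling) and none of 10 macrophage markers was called (none at an unadjusted p of 0.05 either). Of 10 stellate cell markers 1 was higher, and after scaling 0 were higher and 2 lower. Over all genes tested, 15.1% were higher and 3.03% lower. With X36 livers 1 to 3 alone, 6 stellate cell markers were higher, and 0 endothelial and 0 macrophage markers were lower. With livers 4 to 6 alone, 0 stellate cell markers were higher and 2 lower, as were 8 endothelial and 2 macrophage markers. Lymphocyte markers summed to at most 1.58 RPKM, skeletal muscle markers to at most 1.01 RPKM, and 4 of 9 pancreas acinar markers were at 0 in all 9 livers. Cholangiocyte and lymphocyte markers had no call (1 and 0 with an unadjusted p under 0.05), and neutrophil, erythroid and acinar markers 1 lower call each. Those 3 calls and the endothelial one made with all X36 livers were not made without X28 replicate 2.

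**Figure D4:**
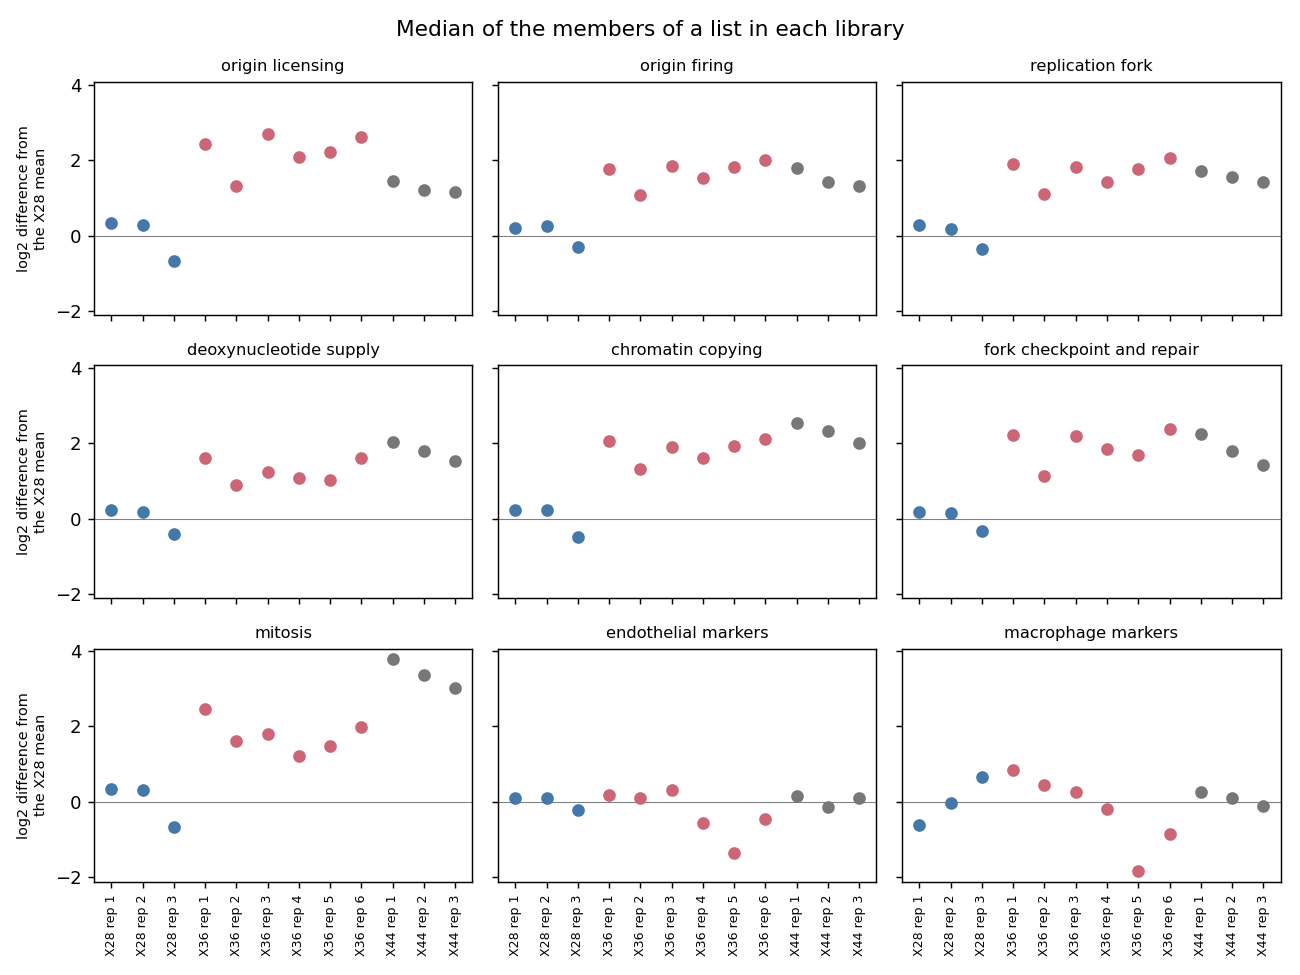
Median over list members in each X28 (blue), X36 (red) and X44 (grey) liver, as log2 difference from the X28 mean. X28 replicate 3 is the lowest X28 liver and X36 replicate 2 the lowest X36 liver for licensing, at −0.67 and 1.32, and endothelial and macrophage markers are lowest in X36 replicate 5.

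Of the 12 largest rises among called protein-coding genes whose groups did not overlap, several lay outside the replication lists. Mybl1, a Myb family transcription factor, had 0.447, 0.323 and 0.155 RPKM in X28 and 3.81 to 9.79 RPKM in X36 (median 5.31), a log2 fold change of 3.48 ± 0.22. Slfn9 of the Schlafen family rose by 3.37, Ncapg2, a condensin subunit, by 3.05, and 2610002D18Rik, listed without a named function, by 3.31. Usp2, a deubiquitinase with a daily rhythm in liver, went from 0.758, 0.863 and 0.468 RPKM to 7.62–14.6 RPKM, a log2 fold change of 3.59. Each of these 5 genes was also called after scaling.

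Clock genes moved in both directions. Of 19 genes, 10 were higher and 3 lower (8 and 5 after scaling). Gm129 (Ciart), a repressor within the clock, had 0.188, 0.245 and 0.166 RPKM in X28 and 2.87 to 9.77 RPKM in X36 (median 7.37). No liver overlapped, and the log2 fold change was 3.80 ± 0.39. Per2, a core repressor, rose from 1.48, 0.692 and 0.641 RPKM to 6.62–8.57 RPKM (log2 fold change 2.77), Per3 by 2.07 and the output factor Dbp by 1.85. Per1 rose by 1.49, but that call was lost after scaling and without X28 replicate 1 or 3.

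The activator Arntl (Bmal1) fell from 1.08, 1.5 and 2.59 RPKM to 0.254–0.587 RPKM (log2 fold change −1.56), and its repressor Nr1d1 from 24.1, 26.0 and 18.6 RPKM to 2.57–8.10 RPKM (median 4.11; −2.36). Neither pair of groups overlapped. Nfil3, a repressor of D-box genes, fell by 0.73. Npas2, a partner of Arntl, stood at no more than 0.252 RPKM in all 9 livers and did not pass (−0.45).

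**Figure D5:**
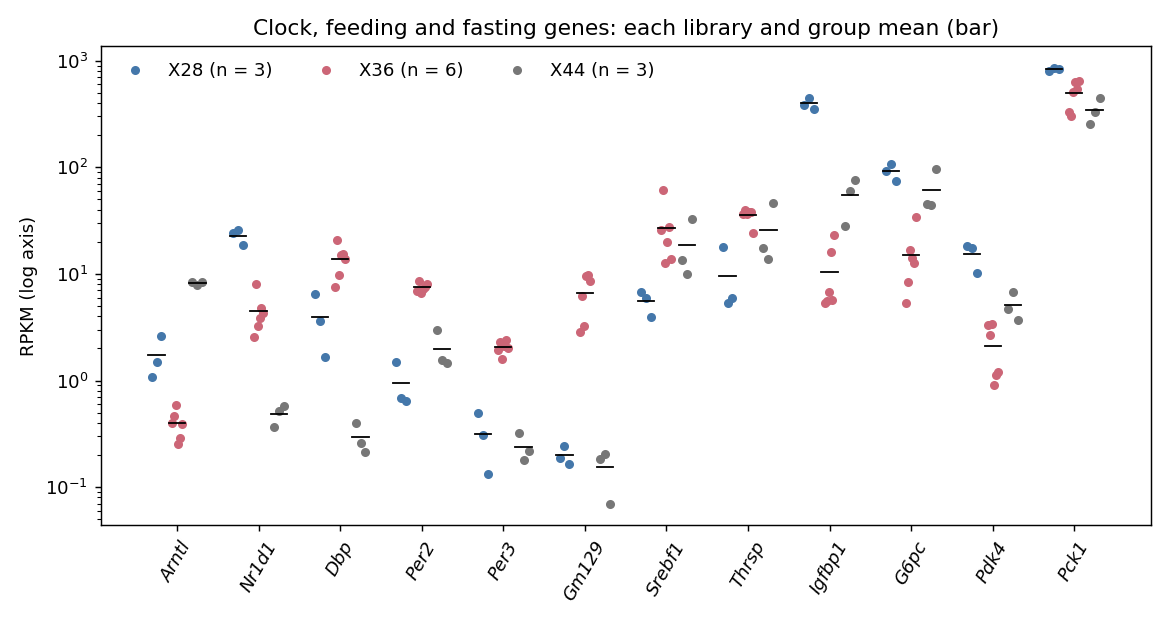
RPKM (log axis) of 12 clock, feeding and fasting genes in each X28, X36 and X44 liver, with group means as bars. Srebf1, Per2 and Gm129 lie higher in all X36 than in all X28 livers, and Arntl, Nr1d1, Igfbp1, G6pc and Pdk4 lower.

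Some genes of feeding rose and some of fasting fell. Srebf1, the lipogenic transcription factor, had 6.76, 5.91 and 3.97 RPKM in X28 and 12.6 to 61.9 RPKM in X36 (median 22.8). Groups did not overlap, and the log2 fold change was 2.04 ± 0.38 (adjusted p = 1.76e-05), or 4.12-fold. Thrsp (2.05) and fatty acid synthase (Fasn, 1.89) rose too. Of 16 genes of fatty acid synthesis, 6 were higher and none lower, and 4 higher and 1 lower after scaling. Scd1 (−0.66) and Elovl6 (−0.26) did not pass.

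Igfbp1, an IGF-binding protein repressed by insulin and listed with the early genes, had 387, 452 and 356 RPKM in X28 and 5.33 to 23.3 RPKM in X36 (median 6.21). Every X36 liver lay far below X28, and the log2 fold change was −5.47 ± 0.61 (adjusted p = 4.15e-11), or 44.3-fold lower. G6pc, the last enzyme of glucose release, fell from 93.2, 108 and 74.0 RPKM to 5.31–34.2 RPKM (−2.79), and Pdk4, which restrains pyruvate oxidation, from 18.3, 17.5 and 10.1 RPKM to 0.906–3.37 RPKM (−2.84). Of 18 genes of the fasting response, 7 were lower and none higher (11 lower after scaling, 5 without X28 replicate 2). Pck1, the gluconeogenic enzyme, had 805, 860 and 837 RPKM in X28 and 304 to 644 RPKM in X36, without overlap, but its log2 fold change of −0.82 ± 0.35 did not pass (adjusted p = 0.0719) and passed after scaling at −1.14. Other large falls were those of the fatty acid elongase Elovl3 (−3.04), Txnip, an inhibitor of glucose uptake (−2.65), 8430408G22Rik (−2.96), Tcp11l2 (−2.40) and the mitochondrial carrier Slc25a30 (−2.30).

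Early-response and growth factor genes were lower or did not pass, except Met. Of 13 tested members of that list 1 was higher and 3 lower (Igfbp1, Junb and Egfr). Outside that list, Egr1, an immediate-early factor, had 41.4, 47.7 and 27.8 RPKM in X28 and 3.04 to 26.2 RPKM in X36 (median 5.03), a log2 fold change of −2.40 ± 0.68. Its highest X36 value, in replicate 1, lay just under the lowest X28 value. The antiproliferative gene Btg2 fell by 2.27, the nuclear receptor Nr4a1 by 2.25 and the AP-1 subunit Junb by 1.62. Of the growth factor receptors, Egfr fell by 1.00, not called with X36 livers 4 to 6 alone (−0.52, adjusted p = 0.235), and Met, the receptor of hepatocyte growth factor, rose by 0.53 with overlapping groups, a call lost after scaling, without any single X28 library and without X36 replicate 2, 4 or 6. Myc stood at 2.36, 2.59 and 2.16 RPKM in X28 and 2.21 to 2.88 RPKM in X36 and did not pass (log2 fold change 0.01 ± 0.40, adjusted p = 1.00).

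A smaller share of members was called in lists of housekeeping and liver function than in those of replication and mitosis. Over all genes tested, 15.1% were higher and 3.03% lower, or 6.72% and 9.33% after scaling. Ribosome biogenesis genes were higher for 9 of 24, led by the nucleolar protein gene Nop56 (1.41), but 1 was higher and 1 lower after scaling. Sterol synthesis genes were higher for 5 of 22 (3 after scaling), but for 2 without X28 replicate 2, for 2 without X28 replicate 3 and for 7 without X36 replicate 2. None of them was without overlap, X28 replicate 1 having the highest X28 level (Lss, lanosterol synthase, 6.83 RPKM against 2.37 and 2.60, and 3.67 to 17.6 RPKM in X36). Of heat shock genes, 2 of 13 were higher, Dnajb1 (1.18) and Hspa8 (0.81), the second not after scaling or without X28 replicate 3. That count is near the share over all genes tested. Folding genes of the endoplasmic reticulum were higher for 1 of 16 (Ddit3, 0.93) and lower for 2, Calr (−0.58) and Pdia6 (−0.51), and after scaling none was higher and 5 were lower. Those calls rested on single libraries: Ddit3 was lost without X28 replicate 3, Calr without X28 replicate 1, and Pdia6 without X28 replicate 1 or 2 or X36 replicate 1, 3 or 4.

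Hepatocyte products defined the tissue in all 9 livers, with albumin (Alb) between 16059 and 42002 RPKM. Of 19 tested products, 3 were higher and 2 lower, and 1 higher and 6 lower after scaling. The count of higher products as deposited is near the share over all genes tested (15.1%). Alb itself rose by 0.62 with overlapping groups, a call lost after scaling and without X36 replicate 2. Cyp7a1, the rate-limiting enzyme of bile acid synthesis, rose from 11.1, 2.53 and 2.31 RPKM to 20.5–40.1 RPKM (median 29.0), a log2 fold change of 2.71 ± 0.60. The fibrinogen gene Fgb fell by 0.80 and Arg1, the last enzyme of the urea cycle, by 0.51, the latter not without X28 replicate 2 or 3 or X36 replicate 2 or 5.

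A step over nearly the same hours of the day, from X4 (ZT6) to X10 (ZT12) on the day of surgery, was compared because it shares no liver with X28 and X36. It ends where the feeding phase begins and is 2 h shorter, so it matches the later step in the light phase only. The X10 livers also came from both collection periods, and the period of the 3 X4 livers is not given in the sources used here. It called 4915 genes (31.9%), 4039 higher (26.2%) and 876 lower (5.69%). Of the 2793 genes called between X28 and X36, 1255 (44.9%) were called in the same direction in that step, which is 25.5% of its own calls, and 206 in the opposite one. A test of the difference between both steps called 3695 genes (24%), 1415 of them (9.19%) with a higher and 2280 (14.8%) with a lower value for the later step.

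Of the 67 replication genes, 45 had a higher step from X28 to X36 and 2 a lower one, and all 12 called genes of firing were among the 45. Rrm2 fell by 1.85 from X4 to X10 and rose by 3.49 from X28 to X36, a difference of 5.34. Cdt1, by contrast, rose by 2.14 from X4 to X10 and by 2.32 from X28 to X36, and the difference of 0.18 did not pass (adjusted p = 0.801). Mitosis genes had a higher step for 42 of 50, with Wee1, at 2.64 and 2.76, not among them.

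Clock genes were divided. Per2 rose by 3.58 from X4 to X10 and by 2.77 from X28 to X36, and Per3 by 2.55 and 2.07, with differences that did not pass. Dbp rose more on the day of surgery (4.10 against 1.85), and Nr1d1, which did not pass there (1.25), fell from X28 to X36. Several feeding and fasting genes moved in opposite directions, among them Thrsp, which fell by 3.77 from X4 to X10 and rose to X36. Upp2, uridine phosphorylase, had the highest difference by the rule for named genes, 6.64, with a fall of 4.31 from X4 to X10 and a rise of 2.33 to X36. Lpin2 (−4.21), Fgf21 (−4.16), Cyp26b1 (−4.14), G0s2 (−4.09) and Cdc42ep5 (−4.07) had the lowest, each rising from X4 to X10 and falling to X36, although the fall to X36 was not called without X28 replicate 2 for Fgf21 and without any single X28 library or X36 replicate 6 for G0s2. Folding genes of the endoplasmic reticulum rose for 12 of 16 in the earlier step and had a lower later step for 11 of 16.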

How the data were processed

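Poly(A) RNA of individual livers was sequenced from strand-specific libraries. Per the labels and methods, the authors mapped reads to mm9 with TopHat2 2.0.13 and Bowtie2, sorted them with SAMtools 0.1.19, assigned them with featureCounts on the sense strand (a read with several positions counted as fractions) and deposited log2 RPKM values for 37991 genes, without a spike-in. Of 87 labelled samples, 80 had a column; 4 value columns of no labelled sample were not used. Genes above −1.5 log2 RPKM in at least 1 library were tested with limma 3.58.1 in R 4.3.3 on log2(RPKM + 0.25), with all 19 groups in 1 model and a trend in the variance. Reads per library were estimated from the steps of low values. The members and gene lists were chosen with earlier results of these data known. Genes named were the 12 largest rises and falls without overlap, a fixed set of cell-cycle, clock and metabolic genes, up to 3 rises and falls of each list, and the 5 highest and lowest differences between both steps; other list members are given as counts or completing examples. The fit was tested on simulated data. Nothing in the labels tied replicate numbers of X28 to those of X36, and p-values measure the spread between livers. Alternatives were another pseudocount, filter, scaling, variance model, library weights, left-out libraries and X36 livers 1 to 3 or 4 to 6. Promoter windows were matched by symbol. Some genes that the rule names are not reported here.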

Additional observations from a re-analysis of the deposited data

Results flagged for a closer look

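Within the 6 X36 livers, 14 of 112 named genes had a lowest or highest liver farther from the rest than Dixon's 95% limit for 6 samples. That limit flags about 1 in 20 of independent genes by chance. Named genes are not independent, and many were picked by their X36 values, so the count cannot be held against that rate. In 13 of the 14 genes the liver was X36 replicate 2. That liver had 8.50 RPKM for Uhrf1, 10.3 for Mcm5, 16.1 for Mcm6, 10.4 for Mcm3, 8.14 for Mcm4, 1.34 for Cdc6, 6.73 for Topbp1, 1.14 for Pole, 1.63 for Chek1 and 0.899 for Rad51ap1, each the lowest of X36. It also had 2.15 RPKM for Elovl3, again the lowest, and 1.51 RPKM for Cdkn1c and 68.6 RPKM for G0s2, each the highest. In X36 replicate 6, Thrsp was lowest at 24.3 RPKM.

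Limma's test of the difference between both steps (later minus earlier step, log2) called more named genes than the 23 flagged here. Uhrf1 (4.28), Tk1 (3.41), Chek1 (3.01), Cdc6 (2.95) and Igfbp1 (−2.57), for example, were called but are not among the 23. Within the 23, differences were higher for Upp2 (6.64), Thrsp (5.82), Rrm2 (5.34), Ces1d (4.29), Fasn (3.05), Srebf1 (2.15), Npas2 (1.57), Gm129 (1.49), Arntl (0.95) and Nfil3 (0.87). They were lower for Lpin2 (−4.21), Fgf21 (−4.16), Cyp26b1 (−4.14), G0s2 (−4.09), Cdc42ep5 (−4.07), Nr1d1 (−3.61), Pdk4 (−3.20), G6pc (−3.14), Angptl4 (−2.64), Dbp (−2.25), Pck1 (−1.82), Calr (−1.66) and Pdia6 (−1.35). For Arntl and Nfil3, both steps were falls, the earlier one larger. Npas2 fell by 2.02 from X4 to X10 and did not pass from X28 to X36 (−0.45).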

How the results depend on the processing

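Limits: X28 had 3 livers, 1 of them with extra low values and 1 lower than the others for cell-cycle genes; libraries had no spike-in, and RPKM are relative to all mapped reads, so the direction of small changes is not fixed. Genes called between X28 and X36 numbered 2793 as deposited, 1744 with a pseudocount of 1 (1428 of them higher, against 2326), and 2348 to 2945 when 1 library was left out (1893 to 2494 higher, 337 to 492 lower). Scaling to the same median gave 1034 higher and 1437 lower, and array weights gave 723 lower against 467. From X36 to X44, 1466 genes were called, 2223 with X36 livers 4 to 6 only, 858 with the groups fitted alone and 1059 to 1677 with 1 library left out. From X4 to X10, 4915 were called and 3204 with a pseudocount of 1. The difference of both steps called 3695 genes, and 3274 to 3910 with 1 library left out. With the replicate number as a block, the 3 numbered pairs fitted alone gave 0 calls by limma for X36 against X28 (0 higher, 0 lower). In that limma fit, 4504 genes passed an unadjusted p of 0.05, and the lowest adjusted p was 0.092. X44 against X36 gave 0 calls as well. Deviations of same-numbered livers correlated at 0.08, −0.03 and 0.02. The labels give no pairing by number, and these correlations cannot settle whether 1 exists. Of 106 named genes called, 96 were called after scaling, 90 with the groups fitted alone, 98 without X28 replicate 2, 95 without X28 replicate 3, 102 without X36 replicate 2, 100 with X36 livers 1 to 3 and 97 with livers 4 to 6, all in the same direction. With X28 replicate 2 left out as well, a choice made after the data were seen, X36 livers 1 to 3 gave 95 and livers 4 to 6 gave 89. Myc, which did not pass (0.01), turned sign after scaling (−0.28), with array weights (−0.09), with X36 livers 1 to 3 and with the block (−0.02 each) and when 1 library was left out (−0.05 to 0.07). Causes were not tested.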
